A study of Mus musculus with 41 samples.

Results

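RNA-seq of MEEC, a wild-type (WT) line of mouse embryonic endocardial cells, was compared between 24 h and 6 h of culture on the control feeder of the study, OP9 stromal cells that carry GFP and no added Notch ligand. The comparison used 6 of the 41 libraries of the series, the 3 labelled MEEC over OP9-GFP at 6 h and the 3 at 24 h. Endocardium is the endothelial lining of the heart, and OP9 is a mouse bone marrow stromal line, from mice that carry a mutation in Csf1, that is used as a feeder and can be made to present Notch ligands. In both groups OP9-GFP cells stood at 90% confluence, but MEEC were at 50% confluency for 6 h and at 25% for 24 h, so time and density change together and cannot be told apart in any result that follows. RNA came from a PicoPure extraction and libraries from the NEBNext Ultra kit. The labels do not say that MEEC were separated from the feeder, so in these bulk samples fewer cells of a type and less RNA per cell cannot be told apart. Nor do they say that the libraries of a group are separate cultures, and a p-value then covers only the variation among these libraries, possibly technical.

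Several gene systems that respond to the state of a culture frame the comparison. Cells sense sterols through the Insig and Scap proteins, which hold back or release SREBP transcription factors that switch on cholesterol and fatty acid synthesis genes. Load on the endoplasmic reticulum engages the unfolded protein response, in which ATF6 and XBP1 switch on chaperone genes through a promoter sequence called the endoplasmic reticulum stress element. Newly plated cells also attach, spread and remodel matrix, with serum-responsive transcription factors, matrix proteases and growth factor receptors among the genes known to move.

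The 6 libraries held 14.2 to 16.2 M reads over 13886 genes. A count of 0 leaves at most 3 reads possible. Without the 0.5 that the scaling adds to each count, 3 reads correspond to a signal of 0.19 to 0.217, depending on the library. Values below are normalized signal, scaled to library size. A difference is log2(signal + 1) at 24 h minus 6 h, ± its SE, from 1 limma fit of 18 libraries with Benjamini-Hochberg adjustment over all genes. A gene is said to rise or fall where adjusted p was under 0.05. The fit treats its 18 libraries, over OP9-GFP and other feeders, as independent. Same-numbered libraries of different feeders deviated together within a time, however, with correlations across genes of 0.3 to 0.8. The p-values therefore rest on fewer independent libraries than the fit counts. Between libraries of the 6 h group, library 2 stood apart: chi-square per gene was 32.57 against library 1 and 18.92 against library 3, but 5.545 between libraries 1 and 3 and 5.611 to 9.154 within the 24 h group. In that library the members of the stromal, laminin and basement membrane, metalloproteinase, collagen and interferon lists lay on average 0.48 to 0.56 above the mean of the 6 libraries on the log2 scale, while cytosolic ribosome genes lay 0.37 below it. Counts of calls are therefore given with and without it for most lists. The authors' scaling also matters: with library totals made equal, the median of all genes moved from -0.01 to -0.10.

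MEEC libraries held transcripts of endocardial transcription factors but few endothelial markers. Of 25 endothelial genes, 15 are not among the genes listed, Pecam1, Cdh5, Tie1, Emcn and Erg included, and Kdr stood at 10.4 ± 3.47 at 6 h and 7.33 ± 1.95 at 24 h (SD, n = 3, as for every mean below). Nfatc1, a transcription factor of endocardium, stood at 11.4 ± 0.916 at 6 h and 8.57 ± 1.001 at 24 h, with a difference of -0.38 ± 0.14, adjusted p = 0.071 (adjusted p = 0.029 after scaling to equal totals). Of 12 measured endocardial genes 1 rose and 0 fell, with the same counts without 6 h library 2. The riser was the cadherin gene Cdh11 (0.49 ± 0.14, adjusted p = 0.021), whose call was lost without 6 h library 1 or 3 (adjusted p = 0.063 in both), 24 h library 3 (0.071) and after scaling to equal totals (0.052). Stromal markers were also present: the summed signal of 12 measured stromal and fibroblast genes was 875.4 to 1519 at 6 h, highest in library 2, and 753.6 to 1043 at 24 h. Of these 12, 2 fell, the surface protein gene Thy1 (-0.50 ± 0.12, adjusted p = 0.0083) and the homeobox gene Prrx2 (-0.86 ± 0.13, adjusted p = 0.00046), and the platelet-derived growth factor receptor genes Pdgfra (-0.63 ± 0.27, adjusted p = 0.11) and Pdgfrb (-0.44 ± 0.32, adjusted p = 0.35) did not pass; 2 fell also without 6 h library 2, and 5 without 6 h library 1. The median of the 12 was -0.47, but -0.13 without 6 h library 2 and -0.04 without all libraries numbered 2. All 12 are also listed for MEEC cultured with vehicle and without OP9 for longer than 24 h, in a table normalized separately. Dcn read 287.8 to 557.6 there and Thy1 20.1 to 37.3, while Postn read 0.419 to 0.615. The list therefore does not mark the feeder alone. The part of the stromal signal in the results that follow was not tested. Xist, which is transcribed from an inactive X chromosome, and 4 Y-linked genes of the same list were all detected in each of the 6 libraries. Each was also detected in MEEC cultured with vehicle and without OP9, Xist at 222.9 to 261.3 and Ddx3y at 110.2 to 129.6. Their cell source was not tested.

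Between 6 h and 24 h, 1312 genes rose and 1348 fell, 9.45% and 9.71% of the genes tested. Over all genes, called or not, the groups did not overlap in 18.7% with 24 h higher and in 19% with 24 h lower. Lack of overlap held for 1292 of the risers and 1322 of the fallers, so it adds little to a call. The drops were larger: the median size of a called difference was 0.53 on the log2 scale for genes that fell and 0.35 for genes that rose. The fallers held more genes of low signal, with 309 below a mean signal of 5 at both times against 52 of the risers. In a fit of genes with a mean signal of at least 5, 1304 rose and 1005 fell. At least a 2-fold difference was seen in 136 genes that fell and 29 that rose, and at least a 4-fold difference in 12 and 1. The single 4-fold riser is Amd-ps3, a processed pseudogene with 0 reads in the 3 libraries at 6 h whose reads may be shared with near-identical copies; it is named here after its values were seen, and none of the 6 fits without 1 library called it. Without 6 h library 2, 628 genes rose (4.52%) and 645 fell (4.64%), 1214 of the 2660 calls were shared, and all 2660 genes kept the sign of their difference. Scaling to equal totals gave 620 risers and 2346 fallers, so the share of risers among calls went from 49.3% to 20.9%. In all, 493 risers and 517 fallers were called in each of the 6 fits that left out 1 OP9-GFP library. Unless a sentence says otherwise, genes described below as risen or fallen belong to these and also passed after scaling to equal totals.

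**Figure D1:**
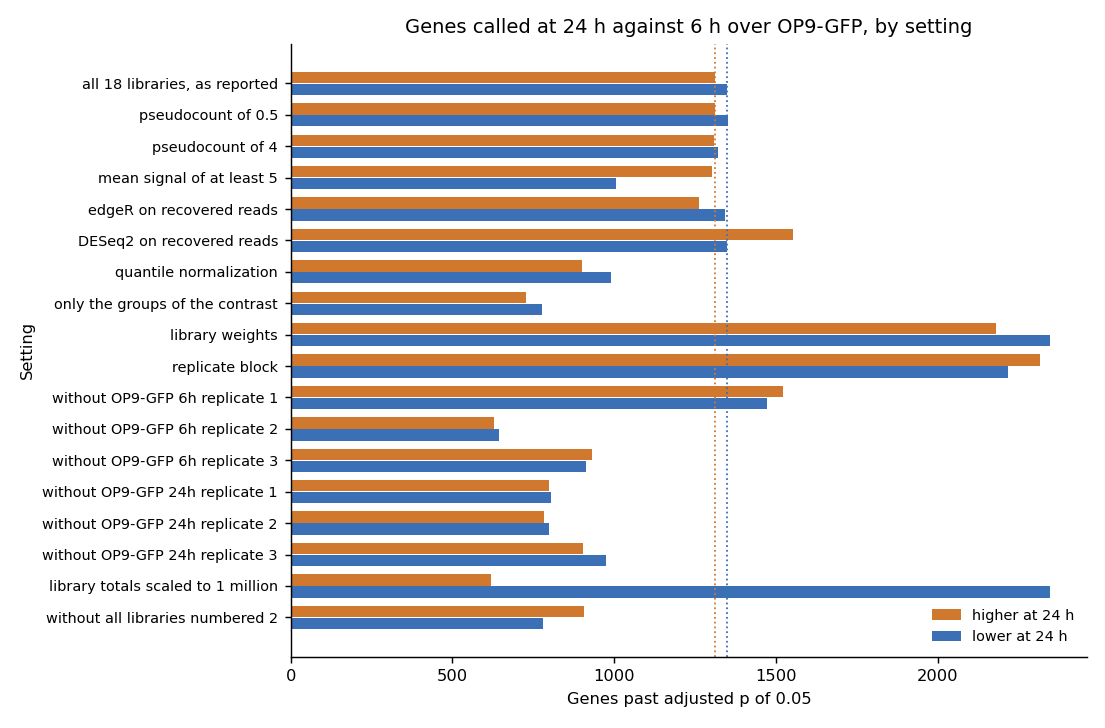
Number of genes that rose (orange) or fell (blue) at 24 h against 6 h over OP9-GFP at adjusted p under 0.05 in each setting, with dotted lines at the counts reported (1312 and 1348). The counts run from 620 to 2317 risers and from 645 to 2346 fallers.

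Genes that were near their detection limit by 24 h led the decreases. Gas7, which encodes a cytoskeletal adaptor protein (chromosome 11, 67455437 to 67688990, plus strand), read 7.42, 18.2 and 13.00 at 6 h and 0.461, 0.397 and 0.671 at 24 h, the latter from 6, 5 and 10 reads. The lowest library at 6 h thus lay more than an order of magnitude above the highest at 24 h, and the difference of -3.13 ± 0.27, adjusted p = 4e-06 was -2.85, adjusted p = 2e-05 without 6 h library 2. Plet1, a surface protein gene of epithelial progenitors (chromosome 9, 50494525 to 50505482, plus strand), read 7.80, 20.2 and 9.57 at 6 h and 0.673, 0.83 and 0.351 at 24 h (-2.97 ± 0.28, adjusted p = 9.7e-06). Sprr1a, a cornified envelope gene that is also induced by cell stress, read 8.06, 21.3 and 12.5 at 6 h and 1.17, 0.975 and 0.862 at 24 h (-2.81 ± 0.33, adjusted p = 6.1e-05). The groups did not overlap in these 3 genes, which was a condition for naming the largest differences. In all 3 genes 6 h library 2 was the highest. The same order of libraries held at 6 h for Mmp13, the gene of collagenase 3 (chromosome 9, 7272514 to 7283331, plus strand), at 4.81, 18.8 and 9.44 at 6 h and 0.744, 0.614 and 0.798 at 24 h (-2.63 ± 0.41, adjusted p = 0.00047, and -2.18, adjusted p = 0.0025 without 6 h library 2). Gas7, Plet1 and Sprr1a are also absent from the genes listed for MEEC cultured with vehicle and without OP9, in a table that was normalized separately. Those cultures ran for longer than 24 h, so a later time and the lack of a feeder cannot be told apart there. In a further separate table, of vehicle cultures over OP9-GFP at 6 h, the 4 libraries read 7.85 to 11.9 for Gas7, 7.59 to 12.8 for Plet1 and 9.74 to 10.6 for Sprr1a. They belong to a screen of the 9681 genes with a mean signal of at least 10 in the higher OP9-GFP group, of which 6 were unlisted or below 1 without OP9. Of these 6, named after their values were seen, 4 fell, the 3 above and Serpina3h, a serine protease inhibitor gene (-1.14, called in 3 of the 6 fits without 1 library), the pseudogene Rpl27-ps3 rose (0.74), and the pseudogene Pgam1-ps2 did not pass (1.04). The part of the feeder in these differences was not tested.

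Genes of higher signal fell too. Xdh, the gene of xanthine oxidoreductase, which makes uric acid (chromosome 17, 73883895 to 73950196, minus strand), read 50.5, 78.8 and 60.2 at 6 h and 10.7, 9.28 and 10.4 at 24 h. Its 24 h libraries lay within 9.28 to 10.7 while the 6 h libraries ran from 50.5 to 78.8, a drop of 6.25 times in the mean (-2.51 ± 0.19, adjusted p = 6.6e-07). Col5a3, a fibrillar collagen gene, read 14.04, 41.1 and 19.7 at 6 h and 3.44, 2.56 and 3.67 at 24 h (-2.49 ± 0.39, adjusted p = 0.00046), and Saa3, an acute phase gene, read 16.2, 51.99 and 31.5 at 6 h and 4.64, 4.29 and 5.33 at 24 h (-2.43 ± 0.39, adjusted p = 0.00065). Both were more than 2 times as high in 6 h library 2 as in library 1, and without that library the differences were -2.07 and -2.04. Tnfrsf23, a decoy receptor gene for the death ligand TRAIL, had no such spread, at 48.7, 50.7 and 50.8 at 6 h and 18.7, 13.5 and 15.9 at 24 h (-1.59 ± 0.13, adjusted p = 2.2e-06). Clic5, a chloride channel family gene, Sema5a, a guidance gene, and Gabra3, a subunit gene of the GABA-A receptor, changed by -2.29 ± 0.29, -2.09 ± 0.40 and -1.67 ± 0.30. Serping1, the gene of the complement inhibitor C1, changed by -1.66 ± 0.46, adjusted p = 0.019, but lost its call without 6 h library 2 (adjusted p = 0.1) and without 24 h library 1 (adjusted p = 0.07).

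The 12 largest increases were taken among genes with a mean signal of at least 10 in the higher group and no overlap between groups. They were smaller than the drops, between 1.06 and 1.53 on the log2 scale. Cpne1, a calcium-dependent membrane-binding protein gene (chromosome 2, 156071842 to 156111965, minus strand), read 24.6, 12.01 and 18.4 at 6 h and 48.2, 62.5 and 49.02 at 24 h (1.53 ± 0.31, adjusted p = 0.0029). Synpo, which encodes the actin-binding protein synaptopodin, read 21.6, 23.1 and 20.6 at 6 h and 67.5, 46.1 and 78.9 at 24 h (1.49 ± 0.22, adjusted p = 0.00031). The lowest 24 h library of Synpo was at about 2 times the highest 6 h library. Scx, a transcription factor gene of tendon and valve progenitors, read 6.66, 4.85 and 7.29 at 6 h and 14.1, 16.4 and 15.4 at 24 h (1.18 ± 0.20, adjusted p = 0.0011). Cdkn2b, which encodes the cell cycle inhibitor p15 (chromosome 4, 89306299 to 89311039, minus strand), read 58.8, 38.6 and 47.8 at 6 h and 99.6, 99.8 and 113.0 at 24 h, with all 24 h libraries close together and above every 6 h library (1.11 ± 0.14, adjusted p = 9.3e-05). Fgf18, a fibroblast growth factor gene, read 15.4, 9.98 and 12.3 at 6 h and 27.9, 33.2 and 22.6 at 24 h (1.09 ± 0.19, adjusted p = 0.0013). Trabd2b, a Wnt-inhibiting protease gene, and Arhgef26, a guanine nucleotide exchange factor gene, rose by 1.16 ± 0.24 and 1.11 ± 0.17. Syn3, a synapsin gene, rose by 1.19 ± 0.27, but by 0.79 without 6 h library 2, whose signal of 24.9 was below the other 6 h libraries at 58.2 and 57.6. CT010467.1, a ribosomal RNA gene on chromosome 17 that overlaps other transcripts of the same repeat, changed by 1.32 ± 0.38, adjusted p = 0.023 and lost its call without 6 h library 2 (adjusted p = 0.086) and without 24 h library 2 (adjusted p = 0.094).

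**Figure D2:**
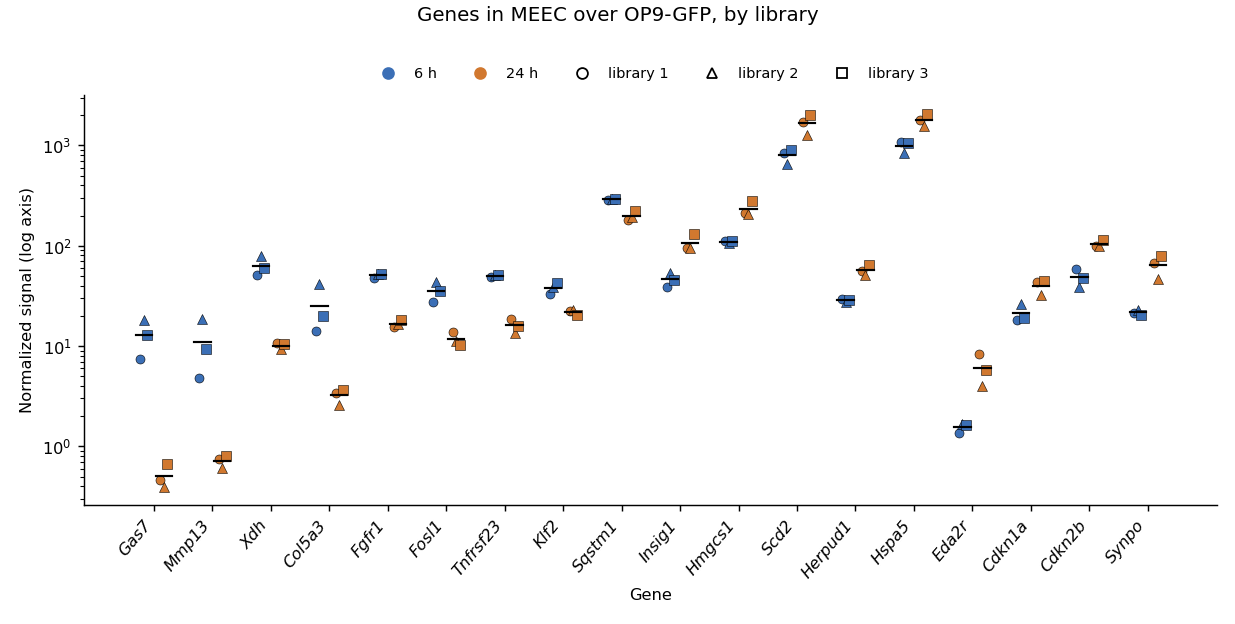
Normalized signal (log axis) of 18 genes in the 3 libraries at 6 h (blue) and the 3 at 24 h (orange) over OP9-GFP, with the symbol giving the library number and the bar the mean of 3. Libraries of the 2 times do not overlap for any gene shown, as was so for 1292 of the 1312 risers and 1322 of the 1348 fallers. The 6 h library 2 (triangle) is the highest of its group for Gas7, Mmp13, Xdh and Col5a3 and the lowest for Scd2, Hspa5 and Cdkn2b.

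**Figure D3:**
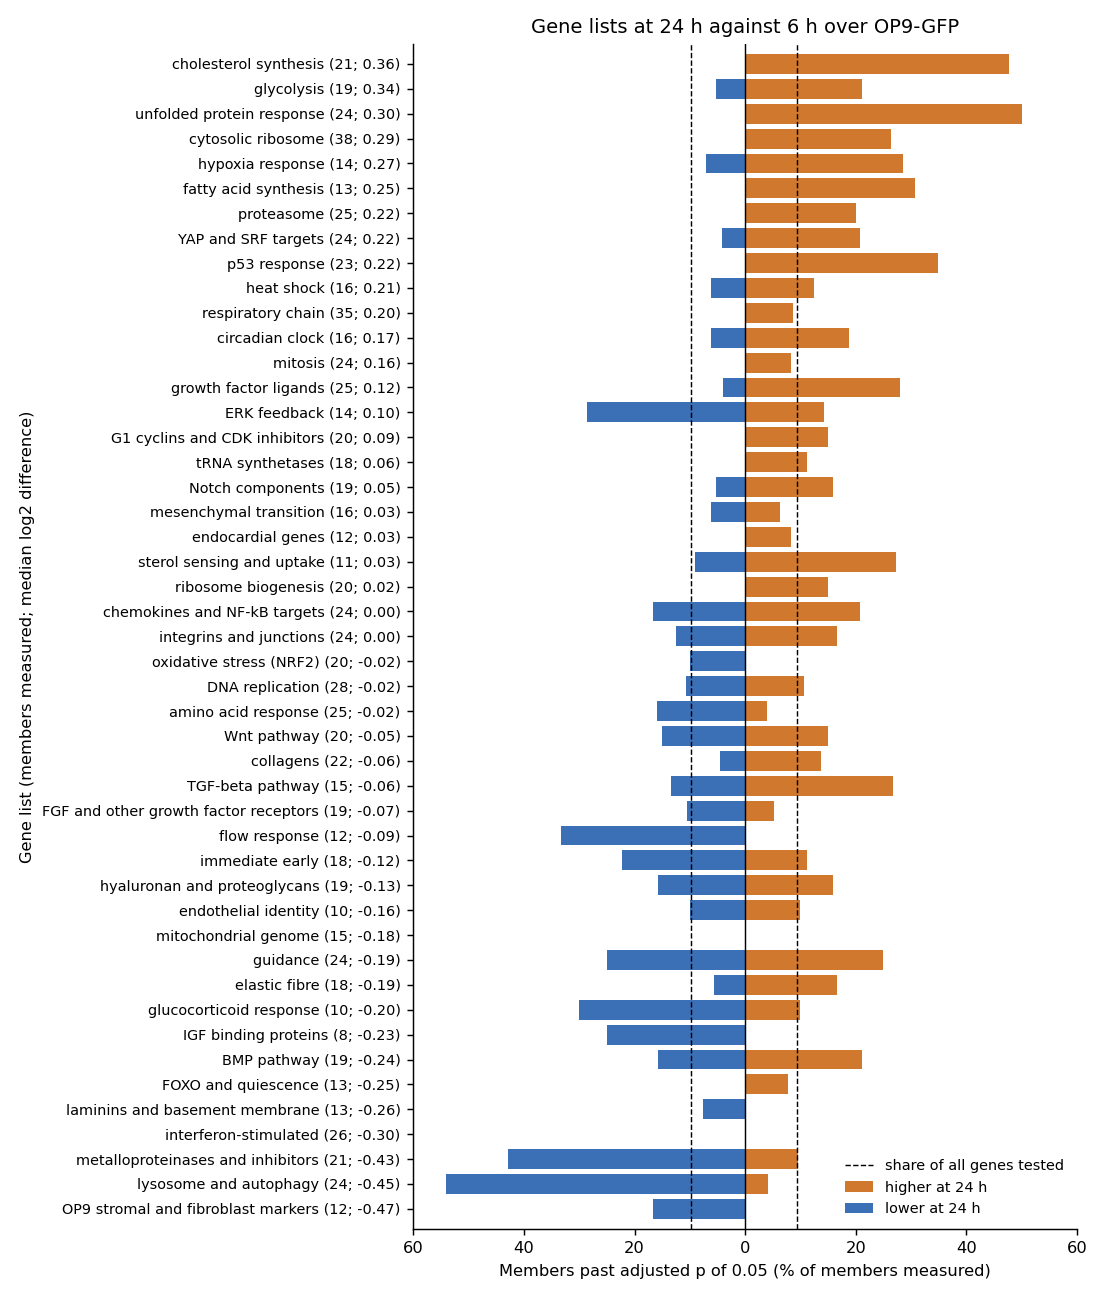
Share of measured members of each list of at least 8 that rose (orange, right) or fell (blue, left) at 24 h against 6 h over OP9-GFP, with the number measured and the median log2 difference in brackets and the share of all genes as dashed lines (9.45% and 9.71%). Lists are ordered by median, from cholesterol synthesis at 0.36 to stromal markers at -0.47, a value that is -0.13 without 6 h library 2.

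Cholesterol synthesis genes rose together. Of the list, 10 of 21 measured members rose and 0 fell (median log2 difference 0.36), against a median of -0.01 over all genes, and 10 rose and 0 fell without 6 h library 2 (median 0.43). Hmgcs1, which makes the HMG-CoA that enters the pathway (chromosome 13, 119690379 to 119708260, plus strand), read 112.0, 106.0 and 110.3 at 6 h and 214.2, 204.9 and 276.5 at 24 h. The highest 6 h library lies well below the lowest 24 h library, and 24 h library 3 is the highest (1.06 ± 0.13, adjusted p = 9.3e-05). Sqle, the gene of squalene epoxidase, rose by 0.59 ± 0.14 (adjusted p = 0.0071). Mvd (0.87 ± 0.10, adjusted p = 6.9e-05), Msmo1 (0.82 ± 0.19, adjusted p = 0.0077) and Lss (0.65 ± 0.13, adjusted p = 0.0033), enzymes of the mevalonate, methylsterol and lanosterol steps, rose as well. The count was 10 also with library totals made equal, and 8 to 11 without 1 library.

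Among genes of sterol sensing and uptake, 3 of 11 measured members rose and 1 fell (median log2 difference 0.03), and 3 rose and 0 fell without 6 h library 2. Insig1, the sterol sensor partner that is itself an SREBP target (chromosome 5, 28071363 to 28078662, plus strand), read 38.9, 53.9 and 45.6 at 6 h and 93.9, 94.96 and 131.5 at 24 h, without overlap (1.19 ± 0.17, adjusted p = 0.00028). Stard4, a cytosolic sterol carrier gene, rose by 0.62 ± 0.08, adjusted p = 0.00013. Srebf2, the gene of SREBP2, stood at 220.1 ± 41.2 at 6 h and 256.8 ± 21.1 at 24 h with overlapping groups (0.24 ± 0.15, adjusted p = 0.27). Npc2, which encodes a lysosomal sterol carrier, changed by -0.42 ± 0.14, adjusted p = 0.042 and did not pass without 6 h library 2 (adjusted p = 0.21), 6 h library 3 (0.072), 24 h library 1 (0.1) or 24 h library 2 (0.14). On the efflux side, Abca1, which exports cholesterol, changed by -0.05 ± 0.10, adjusted p = 0.74.

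Fatty acid synthesis genes shared the direction with smaller sizes. Of 13 measured members 4 rose and 0 fell (median 0.25), and the counts were the same without 6 h library 2. Scd2, a desaturase gene that makes monounsaturated fatty acids, read 845.5, 649.7 and 897.7 at 6 h and 1698, 1280 and 2031 at 24 h (1.05 ± 0.19, adjusted p = 0.0017). Acly, Acaca and Fasn encode consecutive enzymes from citrate to palmitate. They rose by 0.30 ± 0.06, 0.42 ± 0.07 and 0.36 ± 0.07, with adjusted p of 0.003, 0.00092 and 0.003. Scd1, the paralog of Scd2, stood at 254.0 ± 23.99 at 6 h and 315.0 ± 56.5 at 24 h with overlapping groups (0.30 ± 0.15, adjusted p = 0.16).

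The promoter of Hmgcs1 is shown because, of the 7 risen cholesterol synthesis genes with a window, it alone holds the SREBP-type motif searched, TCACNCCAC on either strand, in capitals here. It covers chr13:119690101-119690350 of GRCm38.p6, plus strand, and ends just before the gene start that RefSeq gives.
Hmgcs1 promoter: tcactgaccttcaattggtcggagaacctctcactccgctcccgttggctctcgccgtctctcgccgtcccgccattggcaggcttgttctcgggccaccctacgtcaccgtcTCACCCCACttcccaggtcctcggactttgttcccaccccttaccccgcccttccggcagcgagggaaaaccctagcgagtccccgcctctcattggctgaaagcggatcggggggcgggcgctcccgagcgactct
The match lies 129 to 137 bases before the start. It was found in 1 of 16 cholesterol synthesis promoters (6.25%) and in 122 of 9998 promoters of all listed genes (1.22%), in windows of 250 bases from RefSeq tables. These letters are a description of the window and say nothing on binding.

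Genes of the unfolded protein response rose together: 12 of 24 measured members rose and 0 fell (median log2 difference 0.30). Without 6 h library 2, 6 rose and 0 fell (median 0.27), while 7 and 8 rose without 24 h libraries 1 and 3. The count of risers was 16 without 24 h library 2 and 17 without all libraries numbered 2 (median 0.39). Herpud1, which helps to clear misfolded proteins from the endoplasmic reticulum (chromosome 8, 94386438 to 94395377, plus strand), read 29.5, 27.5 and 28.6 at 6 h and 55.5, 51.5 and 64.3 at 24 h. Its groups are tight and far apart (0.97 ± 0.09, adjusted p = 9.7e-06, and 0.95, adjusted p = 8.7e-05 without 6 h library 2). Hspa5, the gene of the chaperone BiP that guards the sensors of the pathway (chromosome 2, 34771970 to 34777547, plus strand), read 1085, 846.8 and 1052 at 6 h and 1809, 1559 and 2055 at 24 h (0.86 ± 0.13, adjusted p = 0.00046). Library 2 was the lowest in each group, and every 24 h library was above every 6 h library. Manf, a secreted chaperone-like factor gene, and Dnajc3, the gene of a BiP co-chaperone, rose by 0.71 ± 0.16 and 0.61 ± 0.10 (adjusted p = 0.0064 and 0.00099). Xbp1, whose spliced form is a transcription factor of the response, read 69.7, 44.00 and 64.1 at 6 h and 92.6, 84.9 and 99.8 at 24 h (0.66 ± 0.16, adjusted p = 0.0091), and missed the threshold without 6 h library 2 (adjusted p = 0.052). The chaperone gene Hsp90b1 changed by 0.56 ± 0.15, adjusted p = 0.018, with adjusted p = 0.086, 0.061 and 0.082 without 6 h library 2, 24 h library 1 and 24 h library 3.

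The endoplasmic reticulum stress element, CCAAT and CCACG separated by any 9 bases, on either strand, was found in 9 of the 20 promoters of this list that have a RefSeq window (45%) and in 15 of 9998 promoters overall (0.15%). Among promoters of risen members 6 of 10 held it. The sites are printed because 9 members share the element, with the fixed letters in capitals, the 9 bases between them in lower case, each read in the orientation of the element, and positions on GRCm38.p6.
Hspa5, chr2:34772025-34772043: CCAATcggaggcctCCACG
Hsp90b1, chr10:86705638-86705656: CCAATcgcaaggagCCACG
Hsp90b1, chr10:86705533-86705551: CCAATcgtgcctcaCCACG
Canx, chr11:50325800-50325818: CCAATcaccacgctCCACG
Dnajc3, chr14:118937827-118937845: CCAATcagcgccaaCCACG
Creld2, chr15:88819520-88819538: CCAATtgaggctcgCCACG
Syvn1, chr19:6046532-6046550: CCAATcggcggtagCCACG
Calr, chr8:84847075-84847093: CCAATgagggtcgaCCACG
Pdia6, chr12:17266491-17266509: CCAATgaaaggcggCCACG
Derl3, chr10:75893242-75893260: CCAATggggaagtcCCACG
The first 7 sites belong to the 6 members that rose, by 0.86 (Hspa5), 0.56 (Hsp90b1), 0.25 (Canx), 0.61 (Dnajc3), 0.54 (Creld2) and 0.42 (Syvn1). Canx kept its call in 1 and Hsp90b1 in 3 of the 6 fits without 1 library. The last 3 belong to members that did not pass, with differences of 0.35 (Calr), 0.30 (Pdia6) and -0.14 (Derl3). The 10 sites lie 26 to 212 bases before the gene starts, 6 in forward and 4 in reverse orientation relative to the gene. The Hspa5 site lies inside a GENCODE exon. Members with and without the element were not compared by a test.

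The amino acid response, run by the factor ATF4, had calls in both directions. Of its genes, 1 of 25 measured members rose and 4 fell (median log2 difference -0.02), against 9.45% and 9.71% of all genes. Differences were above 0 in 12 members and below 0 in 13. Without 6 h library 2, 1 rose and 3 fell. Vldlr, a lipoprotein receptor gene on the list (chromosome 19, 27216484 to 27254231, plus strand), read 18.9, 25.6 and 23.5 at 6 h and 10.2, 7.33 and 13.4 at 24 h (-1.09 ± 0.23, adjusted p = 0.004). The groups did not overlap. Cth, which makes cysteine from cystathionine, and Atf5, a transcription factor gene, fell by 0.67 and 0.43 on the log2 scale (adjusted p = 0.0025 and 0.0054). Ddit4, an inhibitor of the growth regulator mTORC1, was the riser, at 6.40, 7.45 and 6.95 at 6 h and 16.97, 11.4 and 18.5 at 24 h (1.04 ± 0.21, adjusted p = 0.0027). Atf4 itself, Asns and Trib3 changed by 0.23 ± 0.08, -0.25 ± 0.16 and -0.35 ± 0.19 without passing, and Ddit3, the gene of the stress factor CHOP, stood at 14.3 ± 1.22 at 6 h and 14.1 ± 0.712 at 24 h (-0.02 ± 0.13, adjusted p = 0.94). The C/EBP-ATF motif TTGCATCA lies in 5 of 23 promoters of the list (21.7%) and 63 of all 9998 (0.63%), and 2 of 4 called members with a window hold it, Pycr1 and Vldlr. The site of Vldlr, the largest faller, is printed with the motif in capitals, from chr19:27216809-27216838 of GRCm38.p6, plus strand, 193 to 200 bases before 1 of the 2 starts that RefSeq lists and inside a GENCODE exon.
Vldlr site: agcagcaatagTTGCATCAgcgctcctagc

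The p53 response list had 8 risers and 0 fallers of 23 measured members (median 0.22). The count depended on the libraries: it was 5 without 6 h library 2, 4 without 6 h library 3, 4 without 24 h library 1, 5 without 24 h library 3 and 3 after scaling to equal totals. Eda2r, a death receptor gene of the tumour necrosis factor family, read 1.37, 1.68 and 1.65 at 6 h and 8.39, 4.01 and 5.78 at 24 h, a 3.87-fold rise in the mean with no overlap (1.42 ± 0.21, adjusted p = 0.0003). Trp53inp1, whose product links p53 to cell death and autophagy, read 6.91, 8.46 and 9.24 at 6 h and 18.4, 15.99 and 24.1 at 24 h (1.14 ± 0.18, adjusted p = 0.00054). Cdkn1a, which encodes the cell cycle inhibitor p21 (chromosome 17, 29090976 to 29100727, plus strand), read 18.3, 26.5 and 18.8 at 6 h and 43.1, 32.5 and 44.7 at 24 h (0.89 ± 0.18, adjusted p = 0.0033). These 3 passed in each fit that left out an OP9-GFP library. Mdm2, the ubiquitin ligase gene that limits p53, stood at 93.6 ± 7.09 at 6 h and 114.7 ± 11.02 at 24 h (0.29 ± 0.09, adjusted p = 0.03) and did not pass without 6 h library 2 (adjusted p = 0.076), 6 h library 3 (0.11) or 24 h library 1 (0.14), nor after scaling to equal totals (0.11).

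DNA replication genes had shares of calls near those of all genes (9.45% risers and 9.71% fallers), and mitosis genes a near share of risers but 0 fallers. In DNA replication, 3 of 28 measured members rose and 3 fell (median log2 difference -0.02), and 2 rose and 1 fell without 6 h library 2. Rrm1, a subunit gene of ribonucleotide reductase, rose (0.40 ± 0.07, adjusted p = 0.0013), Rfc3, of the clamp loader, fell (-0.33 ± 0.08, adjusted p = 0.0075), and the anchors Mcm2 (0.06 ± 0.06), Pcna (-0.14 ± 0.09) and Rrm2 (0.24 ± 0.13) did not pass. In mitosis, 2 of 24 rose and 0 fell, and 1 and 0 without 6 h library 2, with a median of 0.16 that was 0.06 without 6 h library 2. All 24 differences were above 0. Anln, the gene of anillin, which organises the cleavage furrow, read 426.3, 355.9 and 401.0 at 6 h and 503.1, 501.9 and 491.1 at 24 h (0.34 ± 0.08, adjusted p = 0.0064). The proliferation marker Mki67 stood at 522.5 ± 41.6 at 6 h and 600.9 ± 35.8 at 24 h (0.20 ± 0.08, adjusted p = 0.097). Of 20 measured G1 cyclin and CDK inhibitor genes 3 rose and 0 fell, and 1 and 0 without 6 h library 2. Ccnd1, a cyclin gene of G1, ranged from 61.7 to 124.9 over the 24 h libraries and overlapped the 6 h group (0.54 ± 0.22, adjusted p = 0.09).

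Lysosome and autophagy genes showed the largest share of decreases of any list shown. Of 24 measured members 13 fell and 1 rose (median -0.45), and 8 fell and 0 rose without 6 h library 2 (median -0.33). The count of fallers was 7, 8 and 8 without 24 h libraries 1, 2 and 3. Sqstm1, which encodes the autophagy receptor p62 (chromosome 11, 50199366 to 50210827, minus strand), read 285.3, 292.4 and 294.9 at 6 h and 179.0, 191.5 and 222.6 at 24 h (-0.56 ± 0.08, adjusted p = 0.00023). Map1lc3b, the gene of the autophagosome protein LC3B, read 94.05, 109.9 and 89.4 at 6 h and 59.3, 61.7 and 63.5 at 24 h (-0.66 ± 0.08, adjusted p = 0.00011). No library crossed between groups for either gene. The lysosomal hydrolase gene Gla fell by 0.87 on the log2 scale (adjusted p = 0.0039). Ctsa and Lamp1 changed by -0.67 ± 0.22 and -0.35 ± 0.10 and did not pass without 6 h library 2 (adjusted p = 0.21 and 0.11). Other single libraries ended these calls too: 24 h library 1 (adjusted p = 0.13 and 0.076), 24 h library 3 (0.073 and 0.055) and, for Ctsa, 6 h library 3 (0.067) and 24 h library 2 (0.078). CACGTG, the core of the motif bound by the lysosome regulator TFEB and by other E-box factors, lies in 7 of 19 promoters of the list (36.8%) and in 9.93% of all promoters.

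Matrix proteases fell, while one of their inhibitors rose. Of 21 measured metalloproteinase, plasminogen activator and inhibitor genes 9 fell and 2 rose (median -0.43). Without 6 h library 2, 6 h library 3 or 24 h library 1 the fallers numbered 5 in each case, and the median without 6 h library 2 was -0.20. Beside Mmp13, Adam19, a membrane protease gene of heart valve development, read 18.7, 41.7 and 24.6 at 6 h and 12.1, 8.34 and 9.29 at 24 h (-1.37 ± 0.27, adjusted p = 0.0028, and -1.06, adjusted p = 0.016 without 6 h library 2). Plau and Plat, the genes of the plasminogen activators urokinase and tissue type, fell by 0.78 and 0.75 on the log2 scale (adjusted p = 0.0047 and 0.0045). Timp3, a matrix-bound inhibitor of these enzymes (chromosome 10, 86300372 to 86349506, plus strand), read 2006, 2329 and 2203 at 6 h and 3047, 3360 and 3309 at 24 h (0.57 ± 0.10, adjusted p = 0.0012). The AP-1 motif TGANTCA lies in 3 of 15 promoters of this list (20%), namely Mmp13, Adam19 and Plaur, which all fell, Plaur with a call in 1 of the 6 fits, and in 5.3% of all promoters.

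Structural matrix genes were split. Of 22 measured collagens 3 rose and 1 fell, with the same counts without 6 h library 2 and 1 riser without 6 h library 3 or 24 h library 1. Col8a1, a short-chain collagen gene of endothelium and vessel wall, read 447.2, 428.9 and 409.3 at 6 h and 670.7, 718.5 and 674.2 at 24 h (0.68 ± 0.08, adjusted p = 6.9e-05), while Col5a3 was the faller. Col3a1 and Col1a1, fibrillar collagen genes of valve and stroma, stood at 2694 ± 989.4 at 6 h and 2508 ± 495.0 at 24 h and at 3251 ± 149.7 at 6 h and 3168 ± 689.8 at 24 h, with differences of -0.06 ± 0.28 and -0.06 ± 0.18. For Col3a1, 6 h library 2 read 3795 against 1880 and 2407. Of 13 laminin and basement membrane genes 0 rose and 1 fell, with 1 and 1 without 6 h library 2 and 3 fallers without 6 h library 1. Of 19 hyaluronan and proteoglycan genes 3 rose and 3 fell, against 9.45% and 9.71% of all genes, with 2 and 3 without 6 h library 2, 1, 2, 0 and 1 risers without 6 h libraries 1 and 3 and 24 h libraries 1 and 3, and 5 fallers without 6 h library 1. Cemip, which degrades hyaluronan, read 84.1, 115.7 and 88.8 at 6 h and 69.04, 53.96 and 59.1 at 24 h (-0.65 ± 0.12, adjusted p = 0.0019), and its receptor gene Cd44 fell (-0.39 ± 0.08, adjusted p = 0.0022). Gpc1, the gene of the proteoglycan glypican-1, read 54.7, 83.5 and 71.4 at 6 h and 34.3, 35.1 and 35.4 at 24 h (-0.96 ± 0.15, adjusted p = 0.00063). Has2, the hyaluronan synthase gene that endocardial cushions need, read 6.08, 7.38 and 8.63 at 6 h and 13.1, 9.28 and 14.2 at 24 h (0.65 ± 0.19, adjusted p = 0.027), and did not pass without 6 h library 1 (adjusted p = 0.076), 6 h library 2 (0.068), 24 h library 1 (0.089) or 24 h library 3 (0.1).

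Fgfr1 gave the smallest adjusted p of the genes named here. This receptor gene for fibroblast growth factors (chromosome 8, 25513654 to 25575718, plus strand) read 47.5, 52.8 and 52.2 at 6 h and 15.5, 16.4 and 18.04 at 24 h. The mean was 3.05-fold lower at 24 h, and each group was tight (-1.56 ± 0.10, adjusted p = 4e-07, and -1.53, adjusted p = 2.5e-06 without 6 h library 2). Of 19 growth factor receptor genes 2 others passed, Fgfr2 (-0.32 ± 0.09, adjusted p = 0.027) and Igf1r (0.38 ± 0.10, adjusted p = 0.018). Fgfr2 did not pass without 6 h library 2 (adjusted p = 0.058), 6 h library 3 (0.11), 24 h library 1 (0.11) or 24 h library 2 (0.095), nor did Igf1r without 6 h library 1 (0.061) or 24 h library 2 (0.074) or after scaling to equal totals (0.065). Of the ERK feedback genes that report receptor signalling, 2 of 14 rose and 4 fell, and 1 and 1 without 6 h library 2, with 2, 0, 2 and 1 fallers without 6 h library 3 and 24 h libraries 1, 2 and 3. Etv4, an ETS factor gene, rose (0.56 ± 0.13, adjusted p = 0.007), while Dusp6, Spry2 and Spry4 changed by 0.08 ± 0.08, 0.19 ± 0.13 and 0.03 ± 0.13 without passing.

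Growth factor ligands rose in 7 of 25 measured members and fell in 1 (median 0.12), and in 8 and 0 without 6 h library 2. The count of risers was 4 without 6 h library 3 or 24 h library 3. Fgf2, a heparin-binding growth factor gene, read 23.7, 23.7 and 22.7 at 6 h and 36.02, 39.5 and 42.6 at 24 h (0.73 ± 0.09, adjusted p = 6.9e-05). Csf1, the gene of macrophage colony stimulating factor, read 447.0, 464.7 and 389.8 at 6 h and 813.7, 666.3 and 714.2 at 24 h (0.75 ± 0.10, adjusted p = 0.00013). Vegfd, a lymphangiogenic growth factor gene, read 19.7, 16.7 and 20.2 at 6 h and 31.4, 33.8 and 31.3 at 24 h (0.74 ± 0.10, adjusted p = 0.00019). For the 3 genes the lowest 24 h library lies clear of the highest 6 h library. Of 8 genes for binding proteins of insulin-like growth factors 0 rose and 2 fell, and 1 fell without 6 h library 2 or 24 h library 1. Igfbp4 read 467.4, 409.8 and 494.3 at 6 h and 267.2, 274.9 and 291.1 at 24 h (-0.71 ± 0.09, adjusted p = 8.2e-05). Igfbp3 stood at 701.1 in 6 h library 2 against 180.3 and 307.1 in its group, and its difference did not pass (-0.94 ± 0.53, adjusted p = 0.22).

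Immediate early genes, which answer serum and adhesion within minutes to hours, split by member. Of 18 measured, 2 rose and 4 fell, with the same counts without 6 h library 2 and 1 riser and 3 fallers without any other single library. Fosl1, an AP-1 subunit gene of migrating cells (chromosome 19, 5447547 to 5455946, plus strand), read 27.4, 43.9 and 35.6 at 6 h and 13.7, 11.2 and 10.2 at 24 h (-1.51 ± 0.19, adjusted p = 8e-05). Its relative Fosl2 moved the other way, at 107.4, 105.8 and 111.0 at 6 h and 143.3, 149.5 and 154.3 at 24 h (0.46 ± 0.09, adjusted p = 0.003). Fosb (-1.19 ± 0.23, adjusted p = 0.0022) and Egr3 (-1.27 ± 0.29, adjusted p = 0.0074), both under a signal of 6 throughout, fell. Fos and Jun, the founding members of the family, stood at 18.4 ± 2.92 at 6 h and 22.9 ± 2.33 at 24 h and at 99.9 ± 6.04 at 6 h and 98.1 ± 2.82 at 24 h, without passing (adjusted p = 0.32 and 0.84).

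Of 12 measured flow-responsive endothelial genes 0 rose and 4 fell (median -0.09), against 9.45% and 9.71% of all genes. Without 6 h library 2, 0 rose and 2 fell, and without 24 h library 2, 1 rose and 2 fell. Klf2, a transcription factor gene induced by shear stress in endocardium (chromosome 8, 72319033 to 72321656, plus strand), read 32.7, 39.1 and 42.8 at 6 h and 22.3, 22.7 and 20.3 at 24 h (-0.78 ± 0.10, adjusted p = 0.00014). Its relative Klf4 read 88.4, 82.5 and 98.2 at 6 h and 62.95, 66.8 and 61.1 at 24 h (-0.49 ± 0.08, adjusted p = 0.0012). Neither gene overlapped between times. Klf2 kept a difference of -0.76 without 6 h library 2. In the separate list of endothelial identity genes, 1 of 10 measured rose and 1 fell, and 1 and 0 without 6 h library 2. Flt1, a receptor gene for vascular endothelial growth factor, read 2.58, 12.3 and 5.21 at 6 h and 1.31, 0.975 and 0.862 at 24 h, and its difference of -1.71 ± 0.46, adjusted p = 0.018 did not pass without 6 h library 2 (adjusted p = 0.099), 24 h library 2 (0.053) or 24 h library 3 (0.053). Cd34, a surface protein gene of endothelium and stroma, rose (0.47 ± 0.07, adjusted p = 0.00042).

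Over this feeder, which has no added ligand, the direct Notch targets did not pass. Of 6 measured 0 rose and 0 fell by limma, 0 were called by edgeR or DESeq2, and 0 had an unadjusted p under 0.05 (median 0.04). Hes1, a repressor gene that Notch switches on, read 41.1, 35.9 and 45.2 at 6 h and 43.6, 34.3 and 46.9 at 24 h (0.02 ± 0.11, adjusted p = 0.9). Hey1 and Hey2, the related repressor genes, stood at 2.60 ± 0.629 at 6 h and 1.86 ± 0.245 at 24 h and at 8.71 ± 1.41 at 6 h and 9.99 ± 1.16 at 24 h, and Nrarp, a feedback inhibitor gene, at 7.57 ± 1.69 at 6 h and 8.75 ± 0.958 at 24 h. The 2 times overlapped for each of these 4. Their differences were 0.02 ± 0.11, -0.32 ± 0.17, 0.18 ± 0.13 and 0.20 ± 0.30, and a missed threshold does not show that a gene was level. Over OP9-Dll4 and OP9-Jag1, 1 and 2 of the 6 rose. Among 19 measured pathway components 3 rose and 1 fell, with 2 to 4 and 0 to 3 without 1 library. Psen2, the gene of a catalytic subunit of gamma-secretase, which releases the active Notch fragment, read 28.1, 22.8 and 26.9 at 6 h and 46.4, 37.8 and 49.5 at 24 h (0.75 ± 0.12, adjusted p = 0.00046). Notch1 (-0.12 ± 0.15) and Jag1 (0.29 ± 0.13) did not pass.

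Genes of the TGF-beta, BMP and Wnt pathways changed in both directions. Tgfb3, a ligand gene of valve formation, read 71.9, 55.7 and 64.9 at 6 h and 107.7, 130.2 and 123.8 at 24 h (0.90 ± 0.12, adjusted p = 0.00012), and Tgfbr2, the receptor subunit gene, rose by 0.31 ± 0.07. In the BMP pathway the receptor genes Bmpr1a and Acvr1 rose by 0.49 ± 0.08 and 0.47 ± 0.08. The 2 secreted antagonist genes went opposite ways: Grem1 read 4.17, 8.39 and 6.01 at 6 h and 1.59, 1.91 and 2.14 at 24 h (-1.28 ± 0.29, adjusted p = 0.0064) and Nog read 1.37, 1.81 and 1.85 at 6 h and 3.65, 5.67 and 3.80 at 24 h (0.99 ± 0.20, adjusted p = 0.0027). Of the Id genes that report BMP signalling, Id4 fell (-1.27 ± 0.26, adjusted p = 0.003) and Id1, Id2 and Id3 did not pass (0.07 ± 0.14, -0.42 ± 0.18 and -0.31 ± 0.14). In the Wnt pathway Axin2, a feedback target, read 4.81, 4.34 and 4.13 at 6 h and 7.19, 14.3 and 8.46 at 24 h (0.96 ± 0.22, adjusted p = 0.0075), and Fzd2, a receptor gene, read 46.3, 41.7 and 48.9 at 6 h and 75.3, 80.5 and 81.6 at 24 h (0.78 ± 0.09, adjusted p = 4.4e-05). The ligand gene Wnt2 read 14.4, 14.4 and 13.00 at 6 h and 4.995, 5.38 and 6.16 at 24 h (-1.20 ± 0.19, adjusted p = 0.00046), and the factor gene Tcf7 fell (-0.69 ± 0.16, adjusted p = 0.0069). Counts were 4 up and 2 down of 15 (TGF-beta), 4 and 3 of 19 (BMP) and 3 and 3 of 20 (Wnt), and 5 and 1, 4 and 2, and 4 and 2 without 6 h library 2. Over the 6 fits without 1 library the fallers ran from 0 to 4 (TGF-beta), 2 to 4 (BMP) and 2 to 4 (Wnt).

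Of 16 mesenchymal transition genes 1 rose and 1 fell, and 0 to 1 of each without 1 library. The repressor genes Snai1, Snai2 and Zeb1 changed by 0.21 ± 0.13, -0.10 ± 0.16 and 0.02 ± 0.12, and none passed. Of 24 integrin and junction genes 4 rose and 3 fell, against 9.45% and 9.71% of all genes, with the same counts without 6 h library 2 and 5 fallers without 6 h library 1 or after scaling to equal totals. Cdh3, the gene of P-cadherin, read 166.9, 237.8 and 209.3 at 6 h and 352.1, 316.3 and 349.2 at 24 h (0.74 ± 0.15, adjusted p = 0.0028), while the integrin subunit genes Itga6 and Itgb3 fell by 0.73 and 0.96 on the log2 scale. Dsg2, a desmosomal cadherin gene, read 6.85, 16.9 and 10.04 at 6 h and 3.37, 2.92 and 3.67 at 24 h (-1.43 ± 0.33, adjusted p = 0.0075). Among guidance genes 6 of 24 rose and 6 fell, with 3 fallers without 6 h library 2 and 4 without 6 h library 3, 24 h library 1 or 24 h library 3. Plxna2, a semaphorin receptor gene of cardiac outflow development (chromosome 1, 194618218 to 194816869, plus strand), read 37.5, 52.2 and 46.6 at 6 h and 16.1, 13.2 and 14.98 at 24 h, a 3.08-fold drop without overlap (-1.55 ± 0.15, adjusted p = 1.2e-05). Slit2, a secreted guidance ligand gene, rose (0.53 ± 0.07, adjusted p = 8.9e-05) and its receptor gene Robo1, at 4.43, 3.77 and 3.53 at 6 h and 2.02, 2.13 and 1.88 at 24 h, fell (-0.70 ± 0.13, adjusted p = 0.0018). In the actin and YAP list 5 of 24 rose and 1 fell, and 3 and 1 without 6 h library 2, with 2 risers without 6 h library 3, 24 h library 1 or 24 h library 2. Cnn2 and Cnn1, calponin genes, moved apart, by 0.67 ± 0.10 and -0.74 ± 0.18, and Ccn1 and Ccn2 did not pass (0.00 ± 0.13 and 0.51 ± 0.20).

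**Figure D4:**
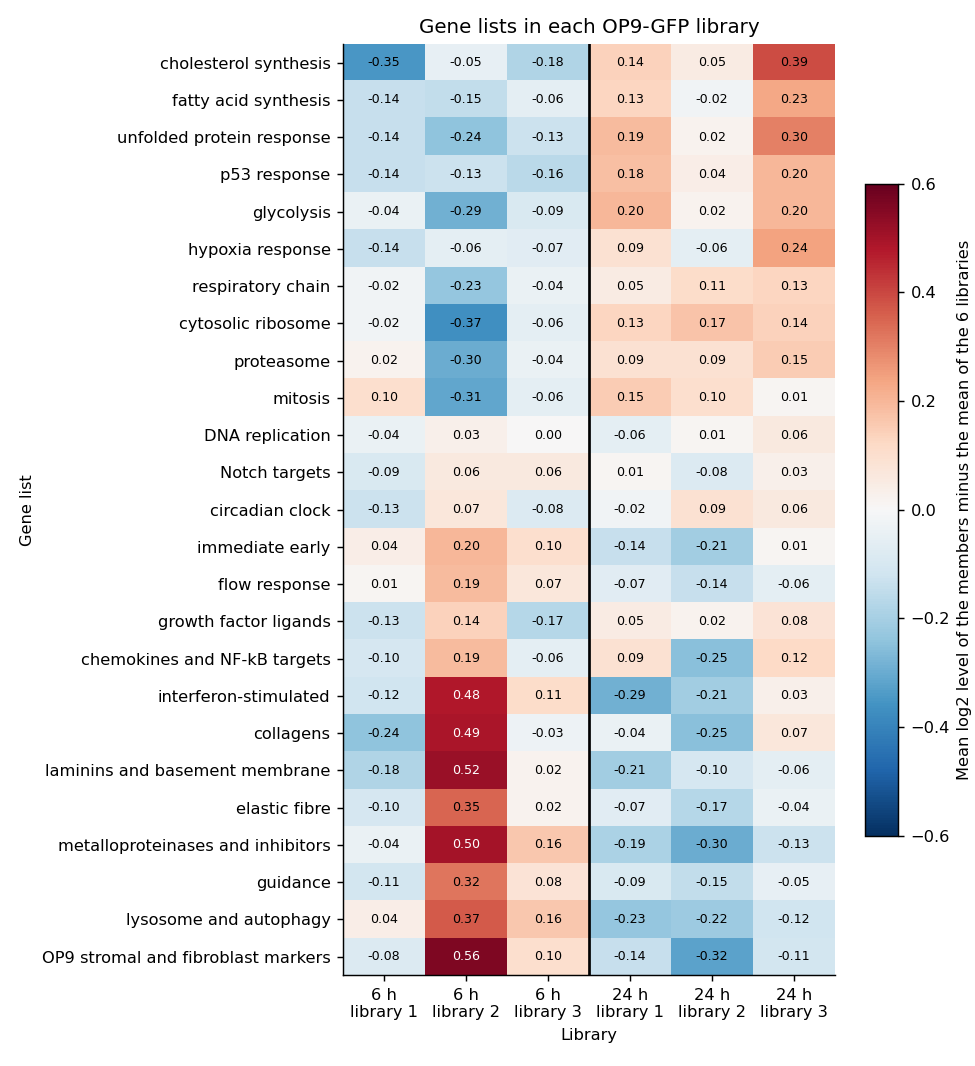
Mean log2(signal + 1) of the members of 25 lists in each OP9-GFP library, minus the mean of the 6 libraries, with the value printed in each cell. The cholesterol synthesis, unfolded protein response and p53 lists are below 0 in each 6 h library and above 0 in each 24 h library, while the interferon, collagen, laminin and stromal lists are set apart mainly by 6 h library 2 (0.48 to 0.56).

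In lists of protein synthesis, protein turnover and respiration most members did not pass. Of 38 cytosolic ribosome genes, which were low in 6 h library 2, 10 rose and 0 fell (median 0.29, against 9.45% risers over all genes), but 1 rose without that library (median 0.17), 2 rose after scaling to equal totals and 20 without 6 h library 1. Without 6 h library 3 and 24 h libraries 1, 2 and 3 the count was 5, 5, 2 and 3. Rps18, a small-subunit gene, passed in each of the 6 fits (0.38 ± 0.08, adjusted p = 0.0027), and reads of such genes can be shared with near-identical pseudogenes. Of 25 proteasome genes 5 rose and 0 fell, and 0 rose without 6 h library 2 or 24 h library 3 and 1 without 24 h library 2. Of 35 nuclear respiratory chain genes 3 rose and 0 fell, a share of risers close to that of all genes, and 1 rose without 6 h library 2 and 9 without 6 h library 1. The 15 genes of the mitochondrial genome had 0 calls by limma, edgeR and DESeq2, and 1 had an unadjusted p under 0.05.

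Glucose and oxygen genes were measured in 2 lists. Of 19 glycolysis genes 4 rose and 1 fell (median 0.34), with 2 and 0 without 6 h library 2, and 1 riser without 24 h library 1 or 3. Without all libraries numbered 2, 10 rose and 0 fell (median 0.30). Slc2a1, the gene of the glucose transporter GLUT1 (chromosome 4, 119108711 to 119137983, plus strand), read 60.1, 61.8 and 57.6 at 6 h and 94.1, 80.2 and 102.3 at 24 h (0.61 ± 0.11, adjusted p = 0.0015). The other risers, Hk2, Ldha and Pfkl, lost their calls in 3 to 5 of the 6 fits without 1 library. Of 14 hypoxia genes 4 rose and 1 fell, with 3 and 1 without 6 h library 2 and 2 risers without 24 h library 1 or 3. P4ha1, a collagen prolyl hydroxylase gene, read 199.1, 177.7 and 194.6 at 6 h and 300.7, 252.5 and 319.1 at 24 h (0.60 ± 0.10, adjusted p = 0.001). Hif1a, the gene of the oxygen-regulated transcription factor, rose (0.42 ± 0.08, adjusted p = 0.0016), and Mxi1, a MYC antagonist gene, fell (-0.51 ± 0.11, adjusted p = 0.0055). Vegfa rose by 0.47 ± 0.12, adjusted p = 0.016 and did not pass without 6 h library 3 (adjusted p = 0.07), 24 h library 1 (0.056) or 24 h library 3 (0.064).

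Targets of the oxidative stress factor NRF2 gave 2 fallers and 0 risers of 20 (median -0.02), with the same counts without 6 h library 2. The share of fallers was close to that of all genes (9.71%). Nqo1, a quinone reductase gene, read 28.3, 11.8 and 19.7 at 6 h and 8.25, 7.33 and 8.72 at 24 h (-1.12 ± 0.26, adjusted p = 0.0079). Srxn1, the gene of sulfiredoxin, read 67.4, 51.4 and 64.9 at 6 h and 30.1, 28.3 and 35.4 at 24 h (-0.94 ± 0.16, adjusted p = 0.0012). In both genes 6 h library 2 was the lowest of its group and still above each 24 h library. Hmox1, the heme oxygenase gene, did not pass (-0.15 ± 0.21, adjusted p = 0.63). Hspb1, a small heat shock protein gene, fell (-0.52 ± 0.12, adjusted p = 0.0072), while the inducible Hspa1a and Hspa1b changed by -0.10 ± 0.17 and 0.19 ± 0.16 without passing.

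Clock genes were examined because 6 h and 24 h are different phases of any synchronised rhythm. Of 16 measured 3 rose and 1 fell (median 0.17), with 4 and 1 without 6 h library 2 and 1 riser without 24 h library 2. Bhlhe40, a repressor gene of the clock, read 82.9, 74.99 and 81.2 at 6 h and 132.2, 105.0 and 143.8 at 24 h (0.65 ± 0.15, adjusted p = 0.0084). Hlf, an output factor gene, read 2.33, 2.95 and 3.33 at 6 h and 0.744, 1.62 and 0.926 at 24 h and fell (-0.90 ± 0.20, adjusted p = 0.0065). Arntl and Clock, the activator genes, stood at 13.1 ± 0.887 at 6 h and 11.3 ± 1.58 at 24 h and at 90.1 ± 6.29 at 6 h and 88.2 ± 4.35 at 24 h and did not pass, nor did Nr1d1, Nr1d2 and Dbp (-0.16 ± 0.17, 0.02 ± 0.13 and -0.02 ± 0.16). Per1 rose by 0.41 ± 0.11, adjusted p = 0.021 and lost its call without 6 h library 2 (adjusted p = 0.087), 24 h library 1 (0.051) or 24 h library 2 (0.068) and after scaling to equal totals (0.052).

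Chemokine and cytokine genes changed in both directions, 5 up and 4 down of 24, and 4 and 3 without 6 h library 2. Cxcl10, an interferon-inducible chemokine gene, read 6.72, 7.32 and 7.69 at 6 h and 13.4, 15.4 and 20.1 at 24 h (1.06 ± 0.16, adjusted p = 0.00046). Lif, the gene of leukemia inhibitory factor, read 25.7, 21.4 and 21.2 at 6 h and 43.8, 40.5 and 39.6 at 24 h (0.83 ± 0.14, adjusted p = 0.00087). Cx3cl1, a membrane-bound chemokine gene, read 4.17, 9.54 and 5.81 at 6 h and 2.94, 1.62 and 2.01 at 24 h (-1.19 ± 0.25, adjusted p = 0.0035), and Tnfaip3, which encodes the NF-kB inhibitor A20, fell (-0.78 ± 0.18, adjusted p = 0.0065). Ccl2, Cxcl1 and Nfkbia did not pass (0.42 ± 0.16, 0.07 ± 0.26 and 0.22 ± 0.09). Of 26 interferon-stimulated genes 0 passed by limma or edgeR in either direction, 2 by DESeq2 and 6 at an unadjusted p under 0.05, with a median of -0.30 that was -0.13 without 6 h library 2. In that library Irf7, a regulator of the interferon response, read 19.7 against 6.02 and 9.64 in its group.

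Most markers of blood cells and adipocytes were not among the genes listed. Of 14 blood markers 11 are absent there, Ptprc included, and Hbb-bs was at 0 reads in the 6 libraries. Of the 3 measured blood markers 2 fell, and 1 fell without 6 h library 2. Csf1r, the receptor gene for macrophage colony stimulating factor, read 4.11, 7.001 and 4.53 at 6 h and 0.886, 1.84 and 0.99 at 24 h and fell (-1.47 ± 0.26, adjusted p = 0.0014). Cd68, a macrophage lysosomal protein gene, was the other (-0.56, adjusted p = 0.047) and kept its call in 1 of the 6 fits without 1 library. The summed signal of the 3 measured blood markers was 7.67 to 11.8 at 6 h and 3.16 to 4.66 at 24 h. Of 13 adipocyte markers 7 are not among the genes listed, Pparg and Adipoq included, and Fabp4 stood at 1.08 ± 0.775 at 6 h and 0.913 ± 0.347 at 24 h. Pnpla2, a lipase gene, was the one adipocyte list member that passed (-0.30 ± 0.08, adjusted p = 0.012), and 0 of 7 measured cardiomyocyte genes passed by limma, edgeR or DESeq2, with 1 at an unadjusted p under 0.05.

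The time difference was measured again over the 2 other feeders, OP9-Dll4 and OP9-Jag1, in libraries not shared with the OP9-GFP comparison. Those feeders add a Notch ligand, and their libraries carried the same change of MEEC density. Of the 1312 genes that rose over OP9-GFP, 916 also rose over OP9-Dll4, which is 69.8% of that list and 72.6% of the 1262 that rose over OP9-Dll4 (9.09% of genes tested). Over OP9-Jag1 715 did, 54.5% of that list and 72.1% of the 991 risers there (7.14% of genes tested). Of the 1348 fallers, 795 (59% and 68.7%) fell over OP9-Dll4 and 704 (52.2% and 66.6%) over OP9-Jag1, where fallers made up 8.33% and 7.61% of genes tested. Calls over all 3 feeders numbered 641 risers and 583 fallers, and the sign was shared by 98.3% to 99% of the calls over OP9-GFP for the other feeders, where 48.6% to 51.4% of all genes had that sign. The feeders are not fully independent: same-numbered libraries within a time deviated together, with correlations across genes of 0.3 to 0.8.

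**Figure D5:**
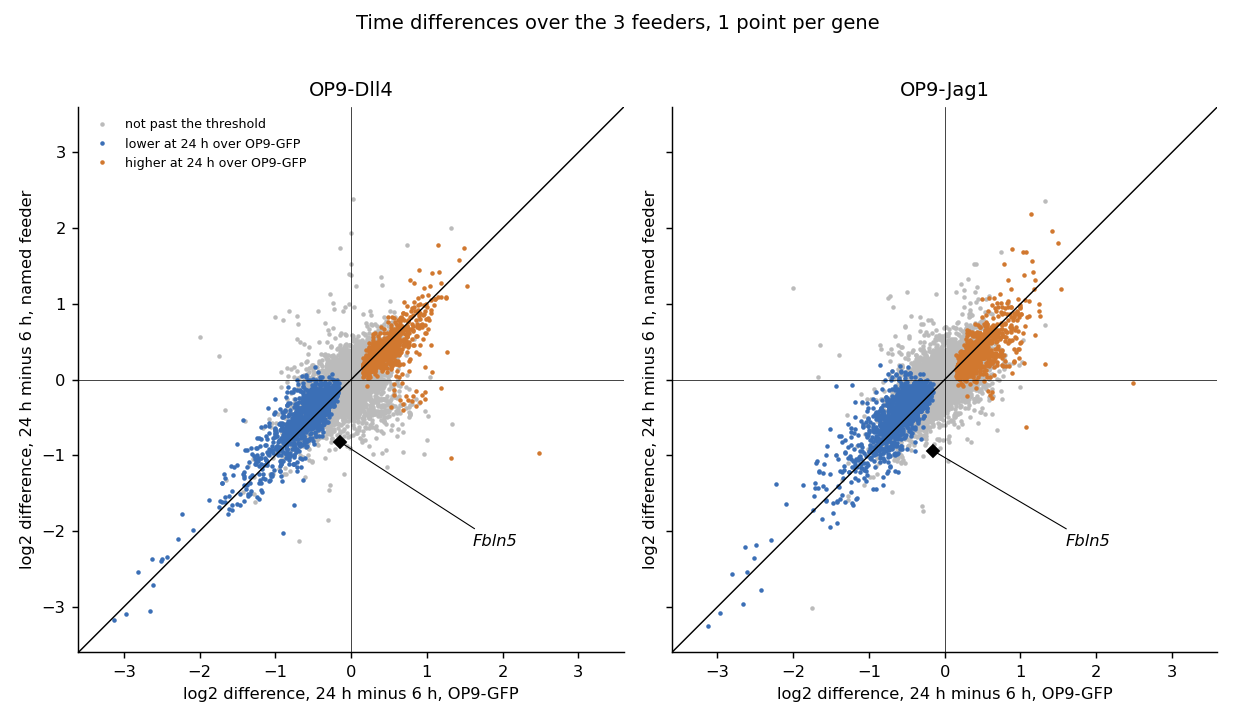
Difference in log2(signal + 1) between 24 h and 6 h for each of 13886 genes over OP9-GFP (x axis) and over OP9-Dll4 or OP9-Jag1 (y axis), with the line of equal values. Most genes that rose (orange) or fell (blue) over OP9-GFP lie on the same side of 0 over the other feeders, and Fbln5 (diamond) lies below the line in both panels.

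Side by side, sizes were close for some leading genes and apart for others. Gas7 changed by -3.13 ± 0.27 over OP9-GFP, -3.17 over OP9-Dll4 and -3.25 over OP9-Jag1. Xdh changed by -2.51 ± 0.19, -2.40 and -2.35, and Hmgcs1 by 1.06 ± 0.13, 1.05 and 1.05. Trp53inp1 changed by 1.14 ± 0.18, 1.77 and 2.18, and Syn3 by 1.19 ± 0.27, -0.11 and 0.59, without a departure that passed the test between feeders as first fitted. By list, cholesterol synthesis had 9 and 10 risers over OP9-Dll4 and OP9-Jag1, the unfolded protein response 10 and 12, and p53 targets 14 and 12. Lysosome genes had 13 and 8 fallers there and proteases 6 and 3. The differences between feeders were tested per gene, not per list.

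By limma at adjusted p under 0.05, 1 gene over each ligand feeder (0.0072% of genes tested) had a time difference that departed from that over OP9-GFP, and it was the same gene, Fbln5, which encodes the elastic fibre protein fibulin-5. Over OP9-GFP it read 192.6, 208.3 and 194.1 at 6 h and 179.2, 176.7 and 181.0 at 24 h (-0.15 ± 0.07, adjusted p = 0.14). Over OP9-Dll4 it read 194.4, 197.2 and 185.4 at 6 h and 109.6, 110.4 and 105.2 at 24 h, and over OP9-Jag1 186.9, 185.8 and 196.5 at 6 h and 86.6, 111.3 and 98.96 at 24 h. The 6 h libraries of the 3 feeders thus lay within 185.4 to 208.3, and the 24 h libraries over OP9-GFP lay above all those over the ligands. The departures were -0.67 ± 0.10 (adjusted p = 0.04) and -0.79 ± 0.10 (adjusted p = 0.0049). At an unadjusted p under 0.05 there were 390 and 480 departures of 13886, edgeR called 0 and 1, and DESeq2 2 and 3. The call over OP9-Dll4 was near the threshold: 14 of the 18 fits without 1 library held no departure there. Among these were fits without an OP9-Jag1 library, although the OP9-Jag1 means do not enter that departure. Every fit without 1 library held at least 1 departure over OP9-Jag1. Hey1 departed by 0.96 ± 0.24 over OP9-Jag1 without passing (adjusted p = 1).

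Because same-numbered libraries deviated together across feeders within a time, a fit of the departures that blocks on the library number separately at 6 h and at 24 h was added once the data had been seen. The block leaves the sizes as they are and narrows the errors of the genes named here. With it 35 genes departed over OP9-Dll4 (0.252% of genes tested), 21 above and 14 below the difference over OP9-GFP, and 182 over OP9-Jag1 (1.31%), 103 above and 79 below. Of these, 17 and 70 were also among the calls over OP9-GFP. Fbln5 kept its departures (adjusted p = 0.0006 and 5.1e-05). Hey1 passed over OP9-Jag1 (0.96 ± 0.18, adjusted p = 0.01) and did not over OP9-Dll4 (0.54 ± 0.18, adjusted p = 0.29). Among genes described above, the p21 gene Cdkn1a departed by 0.55 ± 0.09 over OP9-Dll4 (adjusted p = 0.018) and by 0.82 ± 0.09 over OP9-Jag1 (adjusted p = 0.00019). Its rise was thus larger over the ligand feeders than over OP9-GFP. Trp53inp1 departed by 1.03 ± 0.16 over OP9-Jag1 (adjusted p = 0.0023). The desmosomal gene Dsg2 departed by 0.89 ± 0.16 (adjusted p = 0.027) and 1.33 ± 0.16 (adjusted p = 0.00029). Over OP9-Jag1 the lipoprotein receptor gene Vldlr and the semaphorin receptor gene Plxna2 departed by 0.80 ± 0.11 and 0.68 ± 0.09 (adjusted p = 0.00086 and 0.0011), so their differences were less negative there. Cdkn1a, Trp53inp1, Dsg2, Vldlr and Plxna2 were chosen for mention after their values were seen.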

How the data were processed

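Signal values are as deposited by the authors: tools listed in the submitters' processing notes are RSEM, limma, cutadapt and FastQC, with build GRCm38 and no versions, and strand use is not given in the sources used here. Each value equals (reads + 0.5) over a scaled library size, and 100% of values came out as whole reads within 0.01. With 3 libraries a group, log2(signal + 1) of 13886 genes in 18 libraries (14.1 to 16.8 M reads) was fitted with limma 3.58.1 (R 4.3.3), with trend and empirical Bayes moderation, and adjusted by Benjamini-Hochberg over all genes. On the recovered reads, edgeR 4.0.16 (quasi-likelihood) called 1263 risers and 1343 fallers; DESeq2 1.42.0 was another alternative. Other alternatives were the pseudocount, a mean signal of at least 5, quantile normalization, the 6 h and 24 h groups alone, library weights, a replicate block and leaving out each library; scaling libraries to equal totals, leaving out all libraries numbered 2 and the block within each time were chosen after seeing the data. Same-numbered libraries of the 2 times correlated by 0.032 to 0.19 in their deviations, not all above 0.1, so the numbers do not pair the times. Across feeders within a time every such correlation was above 0.1 (0.3 to 0.8), so the departures between feeders were also fitted with the number as a block within each time.

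Named genes were the 12 largest increases and decreases with no overlap and a mean signal of at least 10 in the higher group, anchor genes and up to 5 called members of each of 53 lists, and up to 8 genes departing between feeders; promoters were printed for at most 4 called genes. Lists, members and tests were chosen with earlier results of these data known. In data simulated for the comparison of 24 h with 6 h over OP9-GFP (13886 genes), 94% of 2-fold and 100% of 4-fold changes were called, with 4.9% of calls false. Only 100 genes of each size were changed, and smaller changes were not simulated. Libraries were drawn independently, without the set-apart library 2 or the shared deviations of same-numbered libraries. These rates therefore do not carry over to the calls in the real libraries. Promoter windows of 250 bases are from RefSeq (GRCm38.p6), and gene positions from GENCODE. Sums and figures used Python 3.11.15, pandas 2.3.3, numpy 2.4.6 and matplotlib 3.10.9. The other 23 libraries, in 2 separately normalized tables, entered only through their vehicle cultures, in levels of marker genes and a screen of 9681 genes for those unlisted or below 1 without OP9.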

Additional observations from a re-analysis of the deposited data

Results flagged for a closer look

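The time difference of Fbln5, which encodes an elastic fibre protein, was larger over both ligand feeders than over OP9-GFP in the test of the difference itself. On the log2(signal + 1) scale the departure was -0.67 ± 0.10 over OP9-Dll4 (limma adjusted p = 0.04) and -0.79 ± 0.10 over OP9-Jag1 (adjusted p = 0.0049). With the replicate number as a block within each time the adjusted p was 0.0006 and 5.1e-05. The call over OP9-Dll4 was lost in edgeR, after quantile normalization, after scaling to equal totals and without all libraries numbered 2, and 14 of the 18 fits without 1 library held no departure there. Over OP9-Jag1 every such fit held at least 1. In both comparisons the 3 libraries at 24 h lay below the 3 over OP9-GFP. Both departures use the same OP9-GFP libraries.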

How the results depend on the processing

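Over OP9-GFP, 1312 risers and 1348 fallers became 728 and 778 in a fit of the 6 libraries alone, 2181 and 2346 with library weights, and 620 and 2346 with totals made equal; without all libraries numbered 2 the fallers were 780. The numbers do not pair the 2 times, though they tie feeders within a time; with a replicate block the counts were 2317 and 2217, and 4195 over OP9-Dll4 and 3508 over OP9-Jag1. Calls over OP9-Dll4 were 1335 in a fit of its groups alone and 4023 with weights, and 4073 over OP9-Jag1 with weights. Without 1 library the ranges were 628 to 1551 risers, 645 to 1521 fallers, 1124 to 2910 calls over OP9-Dll4 and 963 to 2308 over OP9-Jag1, the lowest without library 2 of the 6 h group concerned. The 1 departure over OP9-Dll4 became 0 with edgeR, quantile normalization, scaled totals or without libraries numbered 2, 2 with DESeq2, and 0 to 4 without 1 library (0 in 14 of 18 fits). The 1 over OP9-Jag1 became 3 with DESeq2, 2 in the fit of the groups alone, 5 with weights, 2 with the replicate block, and 1 to 2 without 1 library. With the replicate block within each time they became 35 and 182. The cause of these shifts was not tested, except that fits of fewer libraries hold fewer degrees of freedom. Of 199 called genes among the 290 chosen by the naming rule, 116 kept the call in all 6 fits without an OP9-GFP library, and no direction reversed. A floor of 3 reads, without the 0.5 added to each count, limits genes near a signal of 0.19 to 0.217.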
